A study of Arabidopsis thaliana with 6 samples.

Results

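AT5G18470, AT3G47480 and AT2G18690 are 3 genes of Arabidopsis thaliana, grouped as transcripts of the kind seen in systemic resistance, whose transcripts gave a dim signal in a parent line and a far brighter one in the ceh1 mutant. They were chosen by that contrast on these same 6 arrays, as genes with a dim signal in the parent and a difference over 40-fold, so their levels are given below as a description and without a test. That grouping rests on prior knowledge of such genes and was not tested on these arrays. Each is read by 1 probe set that the platform annotation pairs with a single gene. They are 3 of the 13286 genes that have such a probe set here.

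RNA came from whole plants aged 2 weeks, about 20 of which were collected, with 3 biological replicates of the parent, labelled wild type, and 3 of ceh1. Both genotypes were kept for 2 days in the cold as seed, then grown at 23 °C in 8 h of light and 16 h of darkness on half-strength (0.5) Murashige and Skoog medium, and the labels name no treatment. As background, ceh1 carries a lesion in HDS, an enzyme of plastid isoprenoid synthesis, and is known for accumulating that enzyme's substrate and salicylic acid. Its parent is known to carry a luciferase reporter driven by the HPL promoter. The labels name no second allele, no accession and no pooling scheme, and HDS has no single-gene probe set in the annotation, so the lesion was not checked on these arrays.

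Salicylic acid is the hormone through which a leaf under attack by biotrophic pathogens switches on defence, and systemic acquired resistance is the state in which distant leaves are primed in the same way. Calcium entry is one of the earliest steps of plant immune signalling and is read by proteins with EF-hands, loops that bind calcium. Lectin domains bind sugars, and many plant lectins act at the cell surface or in defence. AT5G18470 encodes a lectin-domain protein and AT3G47480 an EF-hand calcium-binding protein, while AT2G18690 encodes a protein with no name in the annotation used.

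The arrays were not at a common level, and their trimmed mean intensities differed by up to 1.6-fold. The 25S ribosomal RNA control probe set ranged from 293.7 to 985.4 in the parent and from 1132 to 4598 in ceh1, while actin signal from the 3' end over that from the 5' end ran from 19.69 to 22.52 in the parent and from 16.17 to 17.36 in ceh1. Of 8 root marker genes 2 had a single-gene probe set. PYK10, a beta-glucosidase of roots, ran from 8.62 to 9.83 in log2 signal in the parent and from 10.46 to 10.62 in ceh1, and EXPA7, a root hair expansin, was too dim to be tested. None of the 5 leaf markers had a single-gene probe set. The part of these differences in the results below was not tested, and in whole plants a larger share of cells with a transcript and more of it per cell cannot be told apart.

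AT5G18470 had deposited intensities of 3.28, 0.323 and 1.09 on parent arrays 1 to 3, against 186, 466 and 455 on ceh1 arrays 1 to 3. Every ceh1 array was far above every parent array, and the lowest ceh1 intensity was 56.7-fold of the highest parent intensity. After addition of a pseudocount of 2, log2 transformation and quantile normalisation, which gives the scale called log2 signal here, the parent arrays read 2.51, 1.20 and 1.68 and the ceh1 arrays 7.72, 8.59 and 8.61. Parent arrays averaged 1.80 ± 0.66 (SD, n = 3), against 8.31 ± 0.51 (SD, n = 3) for the mutant, which is a log2 difference of 6.51, or 91.1-fold. The 9 pairings of a ceh1 with a parent array gave log2 differences from 5.21 to 7.41. Within ceh1, replicate 1 was the low array and the other 2 lay within a narrow range. On the parent arrays its probe set was brighter than only 15.3%, 0.51% and 7.77% of all probe sets, and on the ceh1 arrays brighter than 78.9%, 88.0% and 88.2%.

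AT3G47480 had deposited intensities of 0.363, 1.43 and 9.18 on parent arrays and of 190, 277 and 206 on ceh1 arrays. The genotypes did not overlap, and the lowest ceh1 intensity was 20.7-fold of the highest parent one. In log2 signal the parent arrays read 1.26, 1.77 and 3.70, with a mean of 2.24 ± 1.29 (SD, n = 3), and the ceh1 arrays 7.75, 7.83 and 7.45, with a mean of 7.68 ± 0.20 (SD, n = 3). The ceh1 arrays were close together and the parent arrays were not, since parent replicate 3 stood above the other 2. The log2 difference was 5.43, or 43.2-fold, with pairings from 3.75 to 6.57. Without parent replicate 3 the difference was 75.8-fold, and without parent replicate 1 it was 29.7-fold. The parent SD exceeded that of 95.2% of the 3058 probe sets whose parent mean lay within 0.5 of this gene's.

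AT2G18690 showed the smallest spread of deposited intensities among the parent arrays, 2.1-fold from lowest to highest, against 10.1-fold for AT5G18470 and 25.3-fold for AT3G47480. Its intensities were 9.73, 6.24 and 13.1 there and 404, 594 and 750 in ceh1, and the lowest ceh1 intensity was 30.8-fold of the highest parent one. The log2 signals were 3.56, 3.07 and 4.18 in the parent, a mean of 3.6 ± 0.56 (SD, n = 3), and 8.86, 8.93 and 9.32 in ceh1, a mean of 9.04 ± 0.24 (SD, n = 3). Replicate 3 was the high array in both genotypes. The log2 difference of 5.43, or 43.2-fold, had pairings from 4.68 to 6.25. On the parent arrays its probe set was brighter than 25.5%, 20.0% and 32.8% of all probe sets, so its parent signal was dim without lying at the bottom of the scale.

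**Figure D1:**
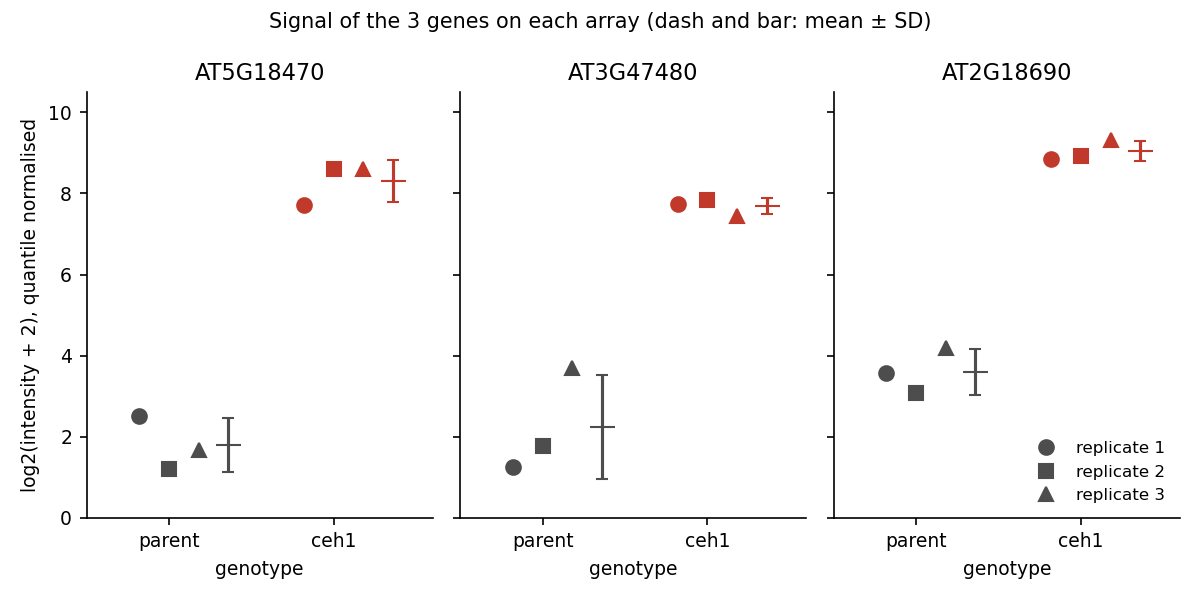
Log2 signal (quantile normalised, pseudocount of 2) of AT5G18470, AT3G47480 and AT2G18690 on each of the 6 arrays, with parent arrays in grey, ceh1 arrays in red and a dash with a bar for mean ± SD (n = 3). The lowest ceh1 values are 7.72, 7.45 and 8.86, all above the highest parent values of 2.51, 3.70 and 4.18, and parent replicate 3 stands apart for AT3G47480.

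In all, 15922 probe sets passed the filter on dim signals, a mean log2 signal of at least 3.8 over the 6 arrays. All 3 genes passed it through their ceh1 arrays, since their parent means lay below that level. Of the tested probe sets, 18 or 0.113% were over 40-fold higher in ceh1 and 0 over 40-fold lower. The 3 genes ranked 5th, 15th and 16th by size of rise among all tested probe sets, in the order AT5G18470, AT3G47480 and AT2G18690, and 1st, 7th and 8th among the 8710 tested probe sets with a single gene, of which 8 or 0.0918% were over 40-fold higher. Groups that did not overlap, with ceh1 higher, were seen in 12.4% of tested probe sets. The choice of the 3 genes fixed both of these properties, so nothing is read from them.

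Just inside the line of 40-fold, a log2 difference of 5.32, lay AT3G47480 and AT2G18690 themselves, both at 5.43. Just outside it were AT1G21520 at 5.21, or 37.0-fold, and AT1G54020 at 5.19, or 36.6-fold. The side of the line depended on the pseudocount and on single arrays. With a pseudocount of 8 the 3 genes differed by 33.5-fold for AT5G18470, 18.4-fold for AT3G47480 and 28.9-fold for AT2G18690, and with a pseudocount of 1 by 133-fold, 59.4-fold and 47.2-fold. The ratio of mean deposited intensities, with neither pseudocount nor normalisation, was 236 for AT5G18470, 61.3 for AT3G47480 and 60.1 for AT2G18690. The 16 alternative settings include filters, a variance model and a replicate block, which cannot change a difference of means. Over all 16, AT5G18470 came below 40-fold in 1, AT3G47480 in 4 and AT2G18690 in 3. Besides the pseudocount of 8, these were AT3G47480 at 29.7-fold, 37.4-fold and 39.3-fold without parent replicate 1, parent replicate 2 and ceh1 replicate 2, and AT2G18690 at 36.1-fold and 39.1-fold without parent replicate 2 and ceh1 replicate 3.

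**Figure D2:**
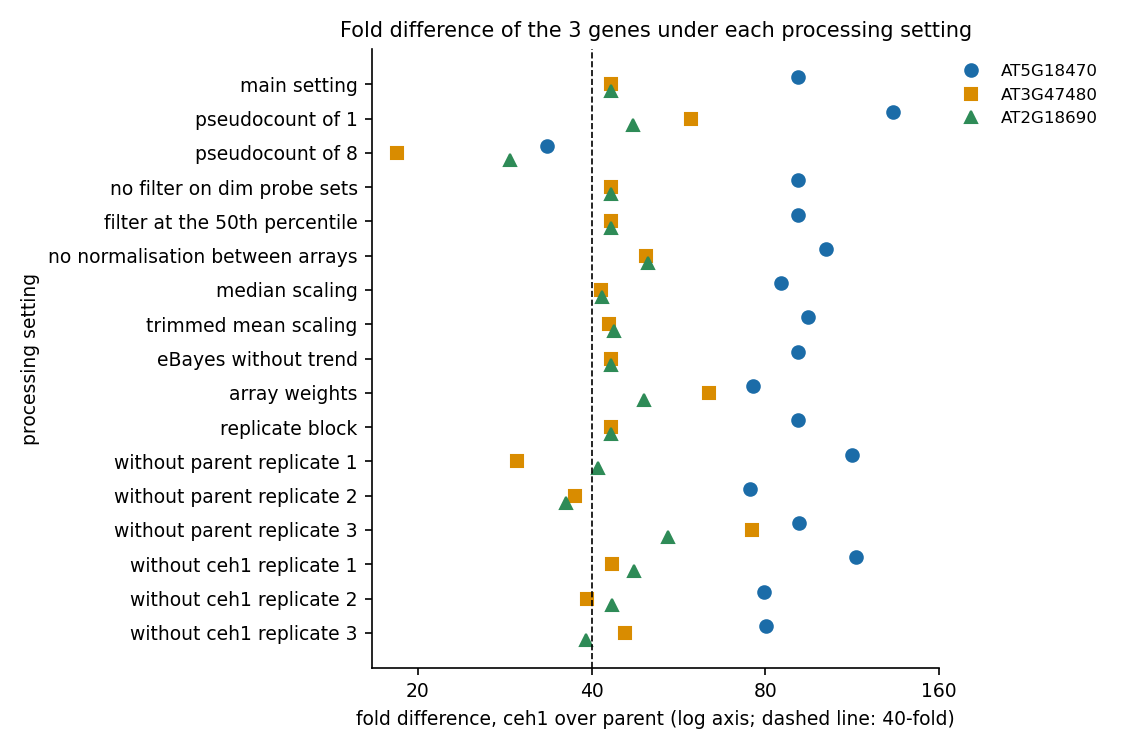
Fold difference of ceh1 over parent (log axis) for AT5G18470, AT3G47480 and AT2G18690 under the main setting and 16 alternatives, with a dashed line at 40-fold. AT5G18470 lies between 33.5 and 133, AT3G47480 between 18.4 and 75.8 and AT2G18690 between 28.9 and 54.3.

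AT5G18470 and the other 2 genes were highest on different parent arrays. Relative to its own parent mean, AT5G18470 was at 0.71, −0.60 and −0.12 in log2 on parent replicates 1, 2 and 3, AT3G47480 at −0.99, −0.47 and 1.46, and AT2G18690 at −0.04, −0.54 and 0.58. Thus AT5G18470 was highest on replicate 1, and the other 2 on replicate 3. Deposited intensities were 0.323 and 1.09 for AT5G18470 on parent replicates 2 and 3. They were 0.363 and 1.43 for AT3G47480 on parent replicates 1 and 2. All of these lie below the pseudocount of 2, so the parent deviations of both genes are uncertain. In ceh1 the same deviations were −0.59, 0.28 and 0.31 for AT5G18470, 0.07, 0.15 and −0.22 for AT3G47480 and −0.18, −0.10 and 0.28 for AT2G18690. No ceh1 array was the lowest for all 3 genes. Among probe sets with a ceh1 mean within 0.5 of their own, the ceh1 SD of AT5G18470 exceeded 83.6%, that of AT3G47480 36.2% and that of AT2G18690 46.7%.

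Likeness to other genes was measured as the root mean square distance over the 6 arrays between log2 signals taken relative to each gene's own parent mean, among the 8710 tested single-gene probe sets. AT1G21520 was nearest to AT3G47480, at a distance of 0.29. It read 1.54, 1.43 and 4.10 on parent arrays and 7.78, 7.54 and 7.39 on ceh1 arrays. Its parent replicate 3 was high in the same way as that of AT3G47480, and its ceh1 replicate 3 was the lowest of the mutant arrays for both. The next in order for AT3G47480 were AT2G18690 at 0.58, AT1G10340 at 0.82, AT5G52760 at 0.83 and THI2.1, which encodes a thionin, at 0.84.

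AT2G18690 was most like AT5G52760, a gene for a heavy-metal-domain protein, at a distance of 0.31. AT5G52760 read 3.02, 2.05 and 3.20 on parent arrays and 8.16, 7.82 and 9.07 on ceh1 arrays, with replicate 2 low and replicate 3 high in both genotypes. THI2.1 at 0.44, AT3G01830 at 0.55, AT4G39670 at 0.56 and AT3G47480 at 0.58 followed. AT5G18470 had the largest rise of the tested single-gene probe sets, which by itself adds to its distances, so nothing is read from their size. Its nearest genes were farther away. They were JRG21, a jasmonate-regulated gene, at 0.69, CHI, a gene for a chitinase, an enzyme that cuts the chitin of fungal cell walls, at 0.76, AT5G52760 and THI2.1, both at 0.82, and AT2G18690 at 0.90. AT3G47480 came 9th for AT5G18470, at 1.26. Since the distance takes in the difference between genotypes, these neighbours were picked by the same contrast as the 3 genes, and their likeness is a description over 6 arrays.

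**Figure D3:**
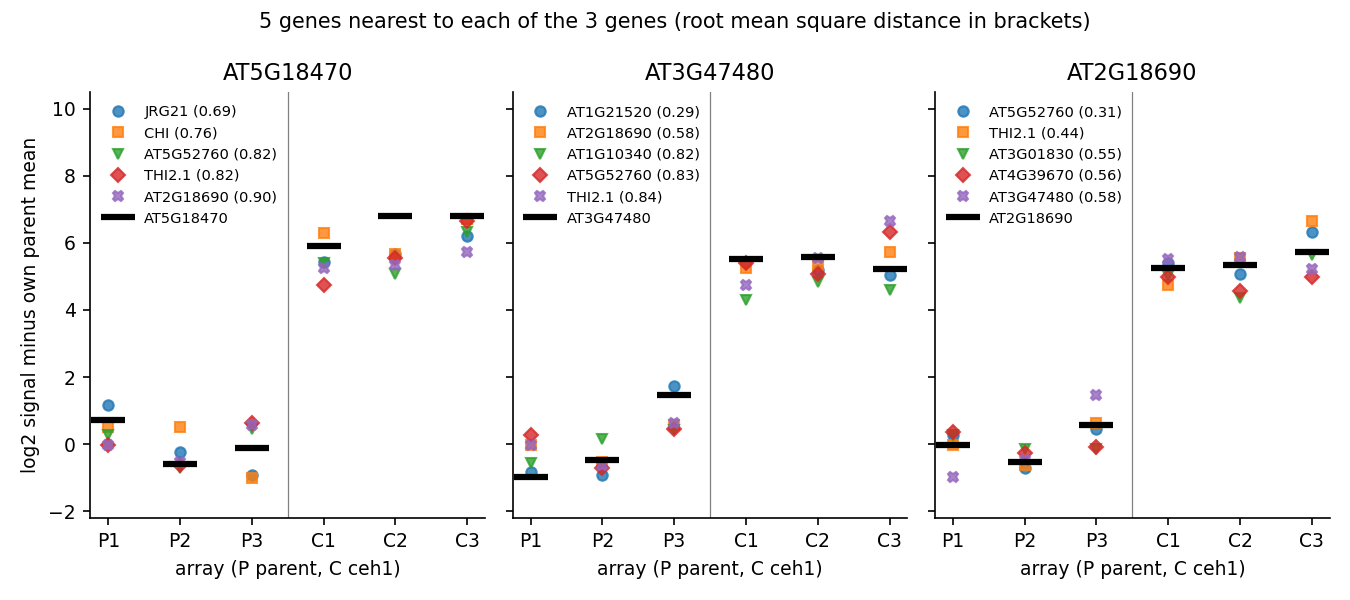
Log2 signal minus the gene's own parent mean on parent arrays P1 to P3 and ceh1 arrays C1 to C3, for each of AT5G18470, AT3G47480 and AT2G18690 (black dashes) and its 5 nearest genes (symbols, distance in brackets). AT1G21520 is the gene closest to AT3G47480, at a distance of 0.29, while the gene nearest to AT5G18470 is at 0.69. The distance takes in the size of the rise, which is largest for AT5G18470.

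The raised signal on parent replicate 3 was shared by some calcium-sensor genes and not by others. AT3G47480 was 2.19 higher in log2 on that array than the mean of parent replicates 1 and 2, a gap larger than that of 99.0% of the 22746 probe sets, and AT2G18690 was 0.87 higher, a gap larger than 89.5%. AT5G18470 had a difference of −0.17 there. CML38 and CML37, calmodulin-like EF-hand genes induced by wounding, were 2.50 and 2.95 higher on parent replicate 3, AT1G21520 was 2.61 higher, and WRKY53, a transcription factor gene of senescence and defence, was 2.68 higher. For CML37 and AT1G21520 these gaps stand against signals at the floor, with deposited intensities of 0.648 and 0.562 on replicates 1 and 2 and 14.6 on replicate 3 for CML37 and of 0.85, 0.748 and 12.4 for AT1G21520, so their size is uncertain, as is that of AT3G47480. CML41 was 0.75 higher. The calmodulin and EF-hand list described below, drawn from words in gene symbols and synonyms, held 8 calmodulin-like genes with a single-gene probe set. Of these 8, 7 were highest on parent replicate 3 among the parent arrays, the exception being AT1G76640. Of all probe sets 37.7% were highest there. In deposited intensity 6 of the 8 were highest there, CML42 being the other exception, against 17.1% of all probe sets. The gaps of CML42, CML23 and CML30 were 0.52, 0.58 and 0.74, and without normalisation 0.09, 0.17 and 0.29. Parent replicate 3 had the lowest trimmed mean intensity of the 6 arrays, 110.7, and without normalisation the gap of AT3G47480 was 1.97. WRKY53, AT1G21520 and the comparison itself were chosen after their values were seen.

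**Figure D4:**
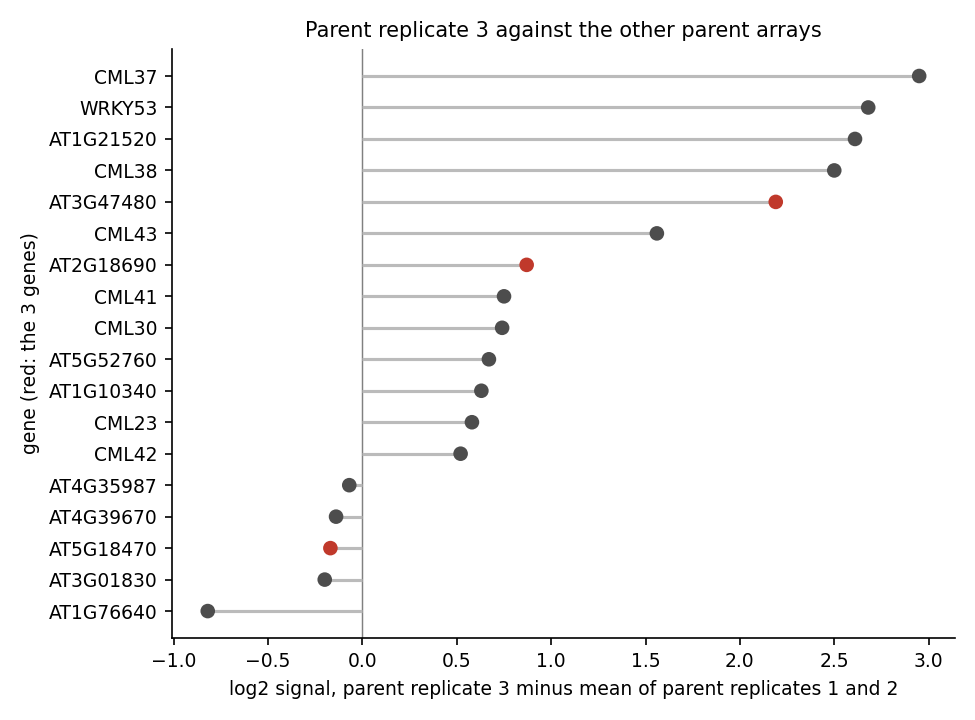
Log2 signal on parent replicate 3 minus the mean of parent replicates 1 and 2, for AT5G18470, AT3G47480 and AT2G18690 (red) and for genes near them in profile, WRKY53 and the calmodulin or EF-hand list (grey). AT3G47480 at 2.19 sits with CML37, WRKY53, AT1G21520 and CML38, while AT5G18470 is at −0.17.

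Genes related to the 3 by pathway or protein class were taken from 4 lists and tested with limma over all 15922 probe sets. Of these, 600 or 3.77% passed an adjusted p of 0.05, 417 or 2.62% higher and 183 or 1.15% lower in ceh1, and the median log2 difference of all tested probe sets was −0.03. Without normalisation between arrays 657 were higher and 61 lower, which puts the share of rises among calls at 91.5%, against 69.5% with it. Leaving out parent replicate 1 or 2 took the count to 168 or 152, and leaving out ceh1 replicate 2 or 3 took it to 296 or 175. Few list members could be named, because many probe sets of the array have no gene in the annotation used, and the counts below describe those members only. Among the 5, 6 and 5 tested members of the salicylic acid, calmodulin and lectin lists, 5, 2 and 4 were higher at an unadjusted p of limma under 0.05. In each of these lists 0 were lower. The share of all probe sets under that line was not counted, so nothing is read from these small counts.

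The list made for the class of AT3G47480 gave log2 differences from −0.61 to 3.64 among its tested genes. The list was drawn from the words calmodulin, EF-hand or calcium binding in gene symbols and synonyms. Genes of the class without such a word are missing from it, and genes named only by profile, such as AT3G01830, were not sorted by class. It held 49 genes, of which 9 had a single-gene probe set and 6 were tested. Of these 6, 1 rose, 0 fell and 5 did not pass, with a median log2 difference of 0.26. Over all tested probe sets 2.62% rose, so nothing is read from 1 rise among 6 genes. The listed gene that rose was CML41, a calmodulin-like gene that acts at plasmodesmata in immunity. Its log2 signal was 4.06, 4.00 and 4.78 on parent arrays and 7.64, 7.70 and 8.43 on ceh1 arrays, without overlap. The log2 difference was 3.64 ± 0.30 (SE), in limma with an adjusted p = 0.00192, and its adjusted p was at most 0.014 in the 16 alternatives. CML38 read 5.60, 5.44 and 8.02 on parent arrays and 8.18, 7.98 and 9.08 on ceh1 arrays, and its groups overlapped because of parent replicate 3. Its log2 difference of 2.06 ± 0.68 (SE) did not pass (limma, adjusted p = 0.146), and without parent replicate 3 it was 2.90 and passed (limma, adjusted p = 0.00765). CML38 also passed without normalisation between arrays, under array weights and in the fit with a replicate block. CML42, CML23 and CML30 had log2 differences of 0.47, 0.05 and −0.61, and AT4G35987, a calmodulin methyltransferase gene that is no EF-hand protein, of −0.15 (limma, adjusted p from 0.257 to 0.947). CML37, CML43 and AT1G76640 were too dim to be tested.

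Lectin genes that could be tested belonged to other lectin classes than AT5G18470. Of 54 genes on the lectin list 5 had a single-gene probe set and were tested, 1 rose, 0 fell and 4 did not pass, with a median log2 difference of 0.99. All 5 differences were above 0, but the share of all tested probe sets above 0 was not counted. Over all tested probe sets 2.62% rose, so nothing is read from these counts among 5 genes. JAL23, a jacalin-related lectin gene, read 5.76, 5.70 and 5.23 on parent arrays and 8.93, 7.65 and 10.48 on ceh1 arrays, with a wide spread among the mutant arrays. Its log2 difference was 3.45 ± 0.63 (SE), in limma with an adjusted p = 0.0321, and it did not pass without parent replicate 1, 2 or 3 or without ceh1 replicate 1, with adjusted p from 0.0573 to 0.122. The jacalin-related JAL33, JAL34 and JAL22 had differences of 1.57, 0.99 and 0.66 and the Euonymus-type lectin gene EULS3 of 0.87 (limma, adjusted p = 0.0648, 0.324, 0.0976 and 0.216). JAL22, JAL23, JAL33 and JAL34 belong to a family whose members bind PYK10, and PYK10 itself was 1.21 higher without passing (limma, adjusted p = 0.0733), but passed when parent replicate 3 was left out, under array weights and in the fit with a replicate block (limma, adjusted p = 0.0473, 0.0322 and 0.0322). Its part in the lectin values was not tested.

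Of 49 genes on the salicylic acid list, 6 had a single-gene probe set and 5 were tested, of which 3 rose, 0 fell and 2 did not pass, with a median log2 difference of 1.68. The risers were GRX480, a glutaredoxin, WRKY6, a transcription factor, and SAG101, a partner of the immune regulator EDS1. SAG101 kept the most even values, 5.48, 5.52 and 5.32 on parent arrays and 6.67, 6.84 and 6.75 on ceh1 arrays, for a log2 difference of 1.31 ± 0.16 (SE), in limma with an adjusted p = 0.00841. GRX480 and WRKY6 differed by 2.31 and 1.68 (limma, adjusted p = 0.0298 and 0.0355). Both failed without parent replicate 1, parent replicate 2, ceh1 replicate 2 or ceh1 replicate 3, so that 1 gene of the list then passed, and WRKY6 also failed without ceh1 replicate 1 and with no filter on dim probe sets. WRKY53, at 2.03, and AT5G52810, at 1.25, did not pass (limma, adjusted p = 0.156 and 0.0571). Both passed without parent replicate 3, without normalisation between arrays, under array weights and in the fit with a replicate block. WRKY53 read 4.63, 4.20 and 7.10 in the parent, so parent replicate 3 was its high array as it was for AT3G47480.

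The list of calcium channels and of pattern-triggered immunity, the response to conserved microbial molecules, held 41 genes, of which 5 were tested. Of these 5, 0 rose, 1 fell and 4 did not pass, with a median log2 difference of −0.25. Over all tested probe sets 2.62% rose and 1.15% fell, so nothing is read from 0 rises among 5 genes. At an unadjusted p of limma under 0.05, 1 gene, BIK1, was higher and 2, WRKY22 and GLR3.6, were lower. The share of all probe sets under that line was not counted. WRKY22, a transcription factor gene downstream of MAP kinases, fell by 0.93 from 7.59, 7.66 and 7.65 to 6.55, 6.92 and 6.64 (limma, adjusted p = 0.0299). It did not pass without normalisation between arrays (limma, adjusted p = 0.42), nor without parent replicate 1, 2 or 3 or ceh1 replicate 1 or 3. EFR, the receptor for bacterial elongation factor Tu, and BIK1, a receptor-associated kinase, had log2 differences of 0.88 and 0.84 (limma, adjusted p = 0.256 and 0.116). The glutamate receptor-like channel genes GLR3.3 and GLR3.6 had −0.25 and −0.59 (limma, adjusted p = 0.613 and 0.198).

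**Figure D5:**
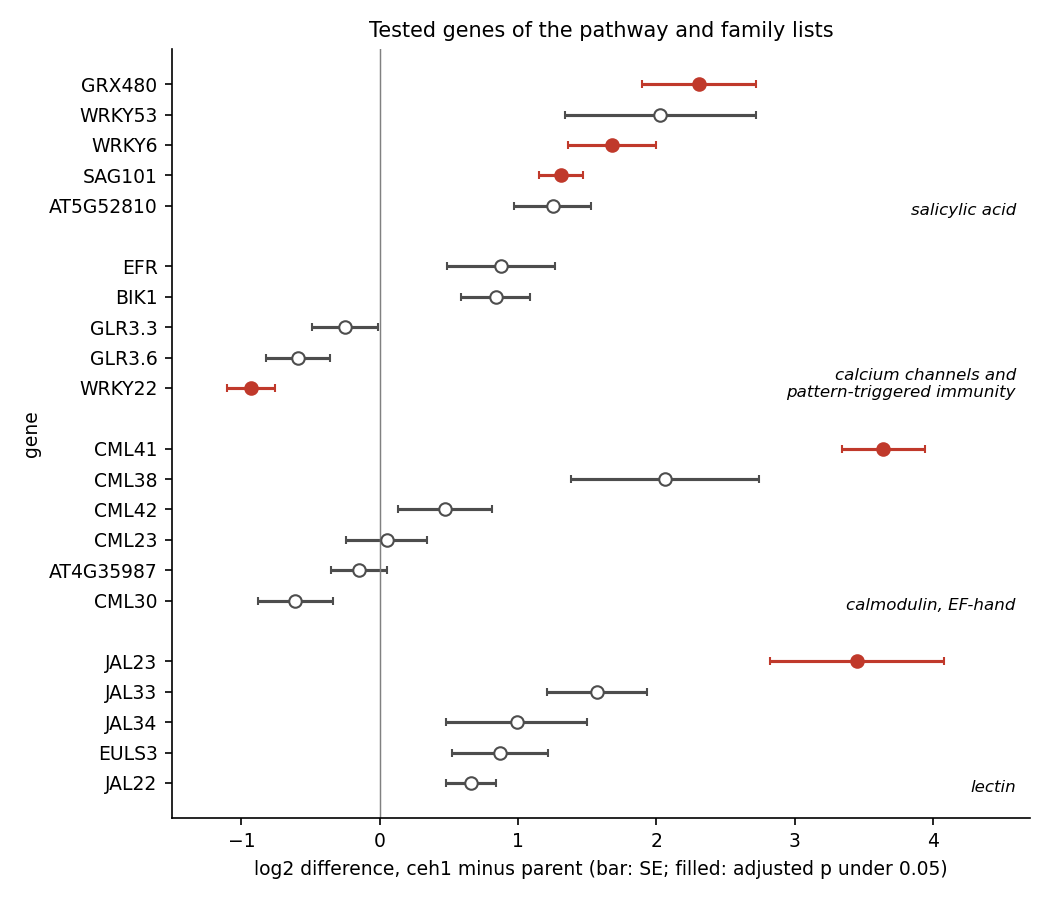
Log2 difference of ceh1 minus parent with its SE for each tested gene of the salicylic acid, calcium and pattern-triggered immunity, calmodulin or EF-hand, and lectin lists, filled where the adjusted p of limma is under 0.05. CML41 at 3.64 and JAL23 at 3.45 are the largest of these differences, and WRKY22 at −0.93 is the 1 fall that passed.

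Genes lying near the 3 on their chromosomes were tested in the same way. Of the 18 protein-coding genes within 3 places of AT5G18470, AT3G47480 or AT2G18690, 9 had a single-gene probe set and 7 were tested, of which 1 rose and 0 fell, with a median log2 difference of −0.23. Over all tested probe sets 2.62% rose and 1.15% fell, so nothing is read from so few neighbours. At an unadjusted p of limma under 0.05, 1 was higher and 2 were lower. The share of all probe sets under that line was not counted. AT5G18490, which lies 3 genes from AT5G18470, read 5.73, 5.41 and 5.89 on parent arrays and 6.63, 7.37 and 6.96 on ceh1 arrays. Its log2 difference was 1.31 ± 0.24 (SE), in limma with an adjusted p = 0.032, and it failed without parent replicate 1, parent replicate 2, ceh1 replicate 2 or ceh1 replicate 3, with adjusted p up to 0.136. The genes directly beside AT5G18470, AT5G18460 and AT5G18475, had log2 differences of −0.46 and −0.65 (limma, adjusted p = 0.232 for both). Beside AT3G47480, AT3G47490 had −0.23, ATSMC2 −0.47 and AT3G47510 −0.05 (limma, adjusted p = 0.589, 0.37 and 0.916). Near AT2G18690, AT2G18670 had 0.32 (limma, adjusted p = 0.416). AT5G18450 and AT2G18720 were too dim to be tested.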

How the data were processed

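RNA of 6 samples, 3 per genotype, was hybridised to 1-colour Affymetrix arrays, 1 array per biological replicate. The deposited table holds 1 linear intensity per probe set and array, which the authors made with MAS5 per the submitters' processing notes. For MAS5, version and settings were not given in the sources used here. No detection calls were used. The number of arrays limits the precision.

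Of 22810 probe sets, 64 controls were set aside, and 13513 of the other 22746 were paired with a single gene, 503 with several and 8730 with none in the annotation table. Gene names and gene order came from the TAIR10.1 gene table, which matched 13436 of the single-gene probe sets. No coordinates are printed, since no build is named for the array. Sequences, protein similarity and promoter motifs were not used here.

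Intensities were taken as log2(intensity + 2) and quantile normalised, the dimmest 30% by mean signal (under log2 3.8) were dropped, and ceh1 was tested against the parent by limma 3.58.1 under R 4.3.3, with lmFit and trended eBayes, two-sided, at a Benjamini-Hochberg adjusted p of 0.05 over 15922 probe sets. The pseudocount makes fold changes of dim probe sets smaller than ratios of their intensities. Where intensities lie near or below it, the true size of the change is uncertain. The 3 genes, the lists, the quantile normalisation and the tests were chosen with earlier results of these data known. No test is given for the 3 genes or for genes chosen by likeness to them. Where a gene had several tested probe sets, the brightest was counted in its list. Simulated arrays of 15922 tested probe sets, 200 of them changed, gave a recovery of 22.4%, 68.8% and 78.2% at log2 changes of 1, 2 and 4, with 3.87% of calls false. Real probe sets vary together, which the simulation left out.

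Named genes were the 3 genes, those next to the 40-fold line, the 5 nearest in profile to each, chromosomal neighbours up to 3 genes away, and the tested members of each list. The list of calmodulin and EF-hand genes and the lectin list were taken from words in the gene table's symbols and synonyms. Alternatives comprised other pseudocounts, filters, scalings and variance models, array weights, a replicate block and each array left out in turn.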

Additional observations from a re-analysis of the deposited data

How the results depend on the processing

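Of the 3 genes, each difference moved by more than the SD pooled over both genotypes (0.59 for AT5G18470, 0.92 for AT3G47480 and 0.43 for AT2G18690) in 1 of 16 alternatives, the pseudocount of 8, where it was 5.07 for AT5G18470, 4.2 for AT3G47480 and 4.85 for AT2G18690. For AT3G47480 that move was smaller than the SD of its parent arrays alone, 1.29. Filters, the variance model and the replicate block cannot change a difference of means. AT5G18470 and AT3G47480 fell below a filter at the 50th percentile. The number of probe sets called was 384 with that filter, 1815 with array weights and 1160 with the replicate block, and from 152 to 676 with an array left out. The median of all tested probe sets was 0.21 without normalisation between arrays. The salicylic acid list had 1 call with the filter at the 50th percentile, where 3 members were tested, and 5 without normalisation, with array weights and with the replicate block, and from 1 to 5 with an array left out. The calcium and pattern-triggered immunity list had 0 calls without normalisation, 2 with array weights, and from 0 to 1 with an array left out. The calmodulin or EF-hand list had 2 calls without normalisation, with array weights and with the replicate block, and from 1 to 2 with an array left out. The lectin list had 2 calls without normalisation, 3 with array weights and 2 with the replicate block, and from 0 to 1 with an array left out. The cause of these shifts was not tested.

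Signs changed only for genes near 0 among the named genes. GLR3.3 was 0.01, AT3G47490 0.02, AT3G47510 0.20 and AT4G35987 0.11 without normalisation. CML23 ranged from −0.19 to 0.24 and AT3G47510 from −0.18 to 0.04 with an array left out.

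Replicate numbers were shared by the genotypes, but the labels do not say that a number marks a shared batch or day. Over 15922 probe sets the deviations of same-numbered arrays from their genotype means correlated at 0.27, 0.06 and 0.47 for numbers 1, 2 and 3. Arrays with unlike numbers correlated at −0.40 to 0.34, the highest being parent replicate 2 with ceh1 replicate 1. The paired fit therefore stands only as an alternative.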
